A study of Mus musculus with 6 samples.

Results

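The lysosome and V-ATPase genes described here are those whose symbols begin with Atp6v, Atp6ap or Lamp and a digit, or consist of Cts and a single letter. Of the 50508 symbols listed for each library, 48 met this rule, and 36 of these were above 0 in at least 1 library, among 19504 such genes in all. They comprised 20 V-ATPase genes (7 V0 subunits, 10 V1 subunits and 3 accessory proteins) and 16 genes of other lysosomal proteins (13 cathepsins and 3 lysosome-associated membrane proteins, LAMPs). The rule used symbols and no difference between groups.

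RNA was measured in primary mouse neurons from newborn C57Bl/6J pups that had been transduced with lentivirus at 1 day *in vitro*. The cells of all 6 libraries carried dCas9 without nuclease activity fused to the transcriptional activator VP160, expressed from the Ef1alpha promoter, which is not restricted to neurons. The 3 Ctrl-dCas9A libraries received a guide against *LacZ* (sgLacZ) and the 3 Kcna1-dCas9A libraries a guide against the promoter of *Kcna1* (sgKcna1), the gene of the potassium channel Kv1.1, and nothing else is stated to differ. The sample labels give hippocampus as the source and the study's methods give cortex, and its methods speak of independent repetitions in general without tying them to these libraries. P-values therefore measure the spread between these libraries, which may be technical. The comparison asks whether V-ATPase subunits, cathepsins and LAMPs differed when *Kcna1* was activated.

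*Kcna1* was listed at 16, 16 and 16 in Ctrl-dCas9A against 68, 47 and 65 in Kcna1-dCas9A. The guide's target rose by 1.83 on the log2 scale (SE 0.16, adjusted p = 0.034, limma with Benjamini-Hochberg adjustment). It missed the threshold with the replicate block (limma adjusted p = 0.11) and in 5 of 6 fits with a library left out, all but that without Ctrl-dCas9A replicate 3. No gene passed in any of the fits that it missed. Among the 8050 genes with a mean of at least 10, its limma adjusted p was 6.2e-05. All values are whole numbers that summed to between 999047 and 999717 per library, and were read as library-scaled values that the authors rounded, and "value" below means this number. Their sequencing depth is unknown. Each 3′ library reads mainly the end of a transcript, so values were not divided by length. All 16 neuron markers were above 0, with *Tubb3* at 1752 to 4591 and *Snap25* at 56 to 94. Markers of astrocytes (10 of 10 above 0), oligodendrocyte lineage (8 of 10) and microglia (14 of 16) were also above 0. In bulk RNA, fewer cells of a type and less RNA per cell cannot be told apart. Ctrl-dCas9A replicate 3 lay closest to the Kcna1-dCas9A mean in 71.0% of the 3202 genes with a mean of at least 10 whose groups did not overlap, and the counts of calls are also given without it.

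The V-ATPase is a rotary proton pump. Its V1 sector in the cytosol hydrolyses ATP and turns a rotor that drives protons through the V0 sector in the membrane, which acidifies lysosomes, endosomes and, in neurons, synaptic vesicles. Cathepsins are proteases that work in the acid lumen of the lysosome, and LAMPs are the abundant glycoproteins of its membrane. Many of these genes carry, near their start, a palindromic E-box known as the CLEAR element, which the transcription factors TFEB and TFE3 can bind.

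The E-box letters CACGTG, which read the same on both strands, were found in the promoters of 9 members, namely *Atp6v0b*, *Atp6v0d1*, *Atp6v0e*, *Atp6v1a*, *Ctsa*, *Ctsd*, *Ctsf*, *Ctsl* and *Lamp1*. A promoter here spans from 250 bases before to 50 bases after a gene's start in RefSeq (GRCm38.p6), and 30 promoters of 27 members were held in the table. The motif was in 30.0% of these and in 7.15% of all 32851 promoters. The longer CLEAR-type letters TCACGTGA, which contain CACGTG, were in 5 of the 30 (16.7%) against 0.974% of all, and the fuller CLEAR palindrome, with 1 more base on each side, was in 0 of the 30 against 0.326%. The windows with TCACGTGA are shown because this stretch is what the promoters of 2 V0 subunits, 1 V1 subunit and 2 cathepsins shared. Capitals mark the motif, and each line runs 5′ to 3′ on the gene's strand. Positions are those of the motif's first base, so the motif of *Atp6v0d1* runs across the start.
Atp6v0d1, chr8:105566051-105566078, minus strand, motif 4 bases before the start: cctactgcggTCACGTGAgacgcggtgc
Atp6v0e, chr17:26676388-26676415, plus strand, motif from base 3 after the start: agcgcgccgaTCACGTGAgcctctgttg
Atp6v1a, chr16:44139374-44139401, minus strand, motif 132 bases before the start: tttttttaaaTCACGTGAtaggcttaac
Ctsa, chr2:164833750-164833777, plus strand, motif 13 bases before the start: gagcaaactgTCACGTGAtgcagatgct
Ctsa, chr2:164833767-164833794, plus strand, motif from base 5 after the start: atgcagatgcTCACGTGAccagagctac
Ctsd, chr7:142387909-142387936, minus strand, motif 99 bases before the start: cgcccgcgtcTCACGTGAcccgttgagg
These are matches of letters and not sites at which binding was measured. The 5 genes did not share a direction, since *Ctsd* was higher and *Atp6v1a* and *Atp6v0e* lower in every Kcna1-dCas9A library, and *Atp6v0d1* and *Ctsa* overlapped between the groups. *Atp6v0a2*, *Atp6v1b2*, *Atp6v1c1*, *Atp6v1h*, *Atp6v1g1*, *Atp6ap1l*, *Ctsb*, *Ctsh* and *Ctsw* had no entry in the table.

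The pump and lysosome genes did not move as a block in Kcna1-dCas9A neurons. *Atp6v0e2*, *Atp6ap1*, *Atp6v1g2* and *Ctsz* were about 1.7 to 2.2 times higher, *Atp6v1h*, *Ctsl*, *Lamp2* and *Atp6v0e* were lower, and the median log2 fold change of all 36 members was -0.02, the same as that of all genes tested. At an adjusted p under 0.05 over 19504 genes (limma on log2(value + 1)), 0 of the 36 members passed, where 1.16% of all genes did (0.349% higher, 0.81% lower). An unadjusted p under 0.05 was found for 18 of 36 (10 higher, 8 lower), against 23.2% of all genes (9.59% higher, 13.6% lower). The groups did not overlap for 17 of 36 (8 higher, 9 lower), against 22.2% of all genes (8.98% higher, 13.3% lower). With 3 libraries against 3, a two-sided exact permutation test cannot go below p = 0.1, the value of each of these 17.

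The adjusted result differed when genes with a low mean were left out, which changed both the number of genes tested and the standard errors. Among the 8050 genes with a mean of at least 10, 13 of 25 members passed, 6 higher and 7 lower, where 28.4% of genes passed (11.4% higher, 17.0% lower). These were 9 of 17 V-ATPase genes (4 higher, 5 lower) and 4 of 8 cathepsins and LAMPs (2 higher, 2 lower). The groups did not overlap for 17 of these 25 (8 higher, 9 lower), against 39.8% of the 8050 genes (15.9% higher, 23.9% lower). After rescaling the libraries by median-of-ratios factors, 8 of 36 members passed (6 higher, 2 lower) against 8.81% of all genes (4.93% higher, 3.88% lower), and the split of all genes past the threshold turned from 68 higher and 158 lower to 962 higher and 757 lower. With the filter and this rescaling together, 12 of 25 members passed, and the balance turned to 8 higher and 4 lower, where 1273 higher and 1028 lower genes passed (28.7%). *Atp6v1a* (log2 fold change -0.26, limma adjusted p = 0.11), *Atp6v1e1* (-0.27, 0.12) and *Atp6v1g1* (-0.48, 0.054) then missed the threshold, and *Atp6v0a1* (0.43, 0.025) and *Ctsa* (0.51, 0.040) passed. Leaving out Ctrl-dCas9A replicate 3 gave 11 members without the filter on the mean, where 14.2% of all genes passed, and 18 of 25 with it, where 46.6% passed. Leaving out any other library gave 0 without the filter, as for all genes, and 4 to 7 of 25 with it, where 11% to 16.5% of the 8050 genes passed. Of the 13 members that passed among the 8050 genes, *Atp6v1a*, *Atp6v1e1*, *Atp6v1g1* and *Ctsd* also passed in 1 of the 6 fits with a library left out, the one without Ctrl-dCas9A replicate 3. *Atp6v0b* and *Atp6v0e* passed in 2 of 6, *Ctsz*, *Atp6v1h* and *Lamp2* in 3, *Atp6v1g2* and *Ctsl* in 5, and *Atp6v0e2* and *Atp6ap1* in 6, each time including the fit without that library. In what follows, a second adjusted p is that among the 8050 genes.

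**Figure D1:**
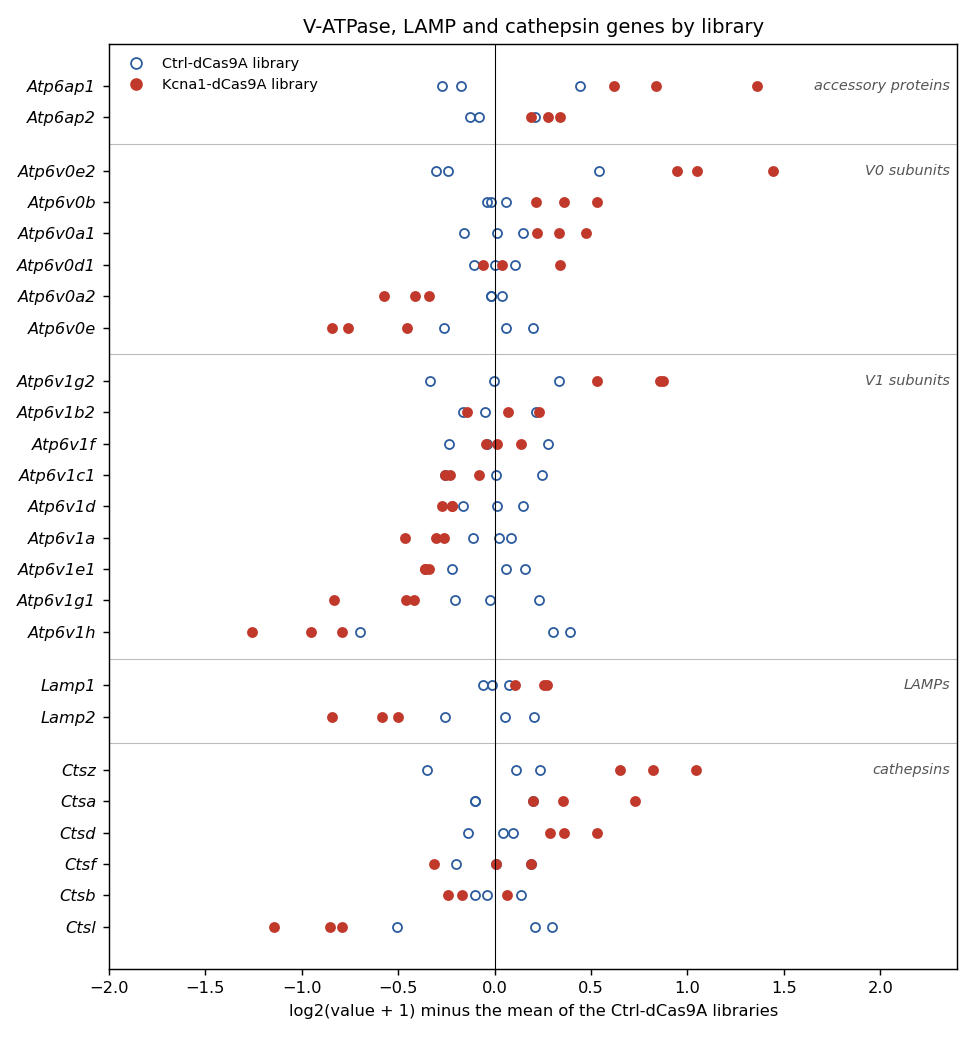
Each row is 1 of the 25 members with a mean of at least 10, and each point is 1 library (open, Ctrl-dCas9A; filled, Kcna1-dCas9A), plotted as log2(value + 1) minus the mean of the 3 Ctrl-dCas9A libraries. Filled points lie to the right of all open points in 8 rows and to the left in 9.

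The proteins that accompany the pump included one of its highest members. *Atp6ap1* encodes Ac45, which takes part in V0 assembly, and was listed at 405, 378 and 622 in Ctrl-dCas9A against 816, 701 and 1173 in Kcna1-dCas9A. The lowest Kcna1-dCas9A library was above the highest control, and the means were 468 ± 134 and 897 ± 246 (SD, n = 3). On the log2 scale the difference was 0.94 (SE 0.25, limma adjusted p = 0.078 over all genes and 0.0035 among genes with a mean of at least 10). Of those 8050 genes, 1.68% had a higher fold change. *Atp6ap2*, the prorenin receptor, which also binds the pump, was listed at 259, 267 and 327 against 322, 358 and 343, and its groups overlapped through Ctrl-dCas9A replicate 3 (log2 fold change 0.27, SE 0.11, limma adjusted p = 0.21). The third gene of this class, *Atp6ap1l*, was not above 1 in any library.

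Among V0 subunits, *Atp6v0e2* stood out. It encodes the e2 form of a small subunit embedded in the membrane, a form enriched in brain, and was listed at 349, 365 and 628 in Ctrl-dCas9A against 893, 831 and 1173 in Kcna1-dCas9A. The groups did not overlap, with means of 447 ± 157 and 966 ± 182 (SD, n = 3), although Ctrl-dCas9A replicate 3 was well above the other controls. The log2 fold change of 1.15 (SE 0.25, limma adjusted p = 0.056, and 0.0013 among genes with a mean of at least 10) was exceeded by 0.832% of the 8050 genes. With each library left out in turn among these genes, *Atp6v0e2* and *Atp6ap1* passed in 6 of 6 fits, with log2 fold changes between 0.99 and 1.42 for *Atp6v0e2* and between 0.73 and 1.16 for *Atp6ap1*.

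The other V0 subunits with higher values differed less. *Atp6v0b*, a proteolipid of the proton-carrying ring, was listed at 171, 168 and 180 against 201, 222 and 250 (log2 fold change 0.37, SE 0.10, limma adjusted p = 0.090 and 0.036). *Atp6v0a1*, the a1 form of the subunit that lines the proton path and the main form in neurons, was listed at 148, 183 and 167 against 193, 209 and 230 (0.34, SE 0.11, limma adjusted p = 0.13 and 0.054). Both were higher in every Kcna1-dCas9A library than in any control. *Atp6v0d1*, which couples the V1 rotor to the ring, was listed at 121, 130 and 112 against 116, 124 and 153 and overlapped, with a 95% interval of the log2 fold change from -0.20 to 0.41.

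The alternative forms of these V0 subunits had lower values. *Atp6v0e*, the widely expressed e1 form, was listed at 32, 29 and 23 in Ctrl-dCas9A against 15, 16 and 20 in Kcna1-dCas9A (log2 fold change -0.69, SE 0.18, limma adjusted p = 0.077 and 0.020). *Atp6v0a2*, the a2 form known from Golgi and endosomes, was listed at 24, 25 and 24 against 19, 18 and 16 (-0.44, SE 0.13, limma adjusted p = 0.099 and 0.080). Neither overlapped. The a4 gene *Atp6v0a4* was not above 1, and *Tcirg1*, the a3 form, whose symbol the rule does not match, was not above 4 in any library.

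Of the 9 V1 subunits with a mean of at least 10, 5 were lower without overlap and 1 was higher, where 23.9% of the 8050 genes were lower and 15.9% higher without overlap. *Atp6v1a*, the catalytic subunit that hydrolyses ATP, was listed at 326, 340 and 297 in Ctrl-dCas9A against 267, 259 and 232 in Kcna1-dCas9A (log2 fold change -0.34, SE 0.10, limma adjusted p = 0.089 and 0.040). Its partner in the catalytic hexamer, *Atp6v1b2*, was listed at 305, 330 and 396 against 358, 309 and 401 and overlapped, with a 95% interval from -0.27 to 0.38. Within the hexamer, the groups were thus separate for A and mixed for B2.

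The peripheral stalks hold the hexamer in place and are built of E and G subunits. *Atp6v1e1* was listed at 224, 209 and 172 against 156, 156 and 158 (log2 fold change -0.35, SE 0.11, limma adjusted p = 0.12 and 0.049). *Atp6v1g1*, the widely expressed G form, was listed at 49, 41 and 36 against 30, 31 and 23 (-0.57, SE 0.17, limma adjusted p = 0.10 and 0.029). *Atp6v1g2*, the G form enriched in neurons, was listed at 38, 48 and 61 against 70, 88 and 89, higher in every Kcna1-dCas9A library (0.75, SE 0.19, limma adjusted p = 0.070 and 0.0067). It passed in 5 of the 6 fits that left out a library, the highest adjusted p being 0.053.

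Of the regulatory subunits, *Atp6v1h*, which the assembled pump needs for activity, had the lowest log2 fold change of the members with a mean of at least 10. It was listed at 65, 61 and 30 in Ctrl-dCas9A against 28, 20 and 25 in Kcna1-dCas9A, so that Ctrl-dCas9A replicate 3 lay 2 units above the highest Kcna1-dCas9A library (log2 fold change -1.0, SE 0.30, limma adjusted p = 0.10 and 0.0088). It passed in 3 of the 6 fits without a library, with log2 fold changes from -1.35 to -0.80. *Atp6v1c1*, the subunit that leaves when V1 detaches from V0, was listed at 77, 65 and 54 against 54, 55 and 61 and overlapped (95% interval -0.54 to 0.16).

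The central rotor subunits showed little difference. *Atp6v1d* was listed at 153, 168 and 135 against 125, 130 and 130, lower without overlap but short of the threshold in both fits (log2 fold change -0.24, SE 0.10, limma adjusted p = 0.23 and 0.17). Its groups overlapped after either rescaling, which left 4 V1 subunits lower without overlap. *Atp6v1f* was listed at 342, 393 and 489 against 391, 407 and 444, with the Kcna1-dCas9A libraries inside the range of the controls (95% interval -0.30 to 0.37).

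For 3 V-ATPase subunits, both forms were measured with the groups apart, and in each the form known for neurons or brain was higher and the wider form lower. The share of the e2 form in the sum of e1 and e2 was 91.6%, 92.6% and 96.5% in Ctrl-dCas9A and 98.3%, 98.1% and 98.3% in Kcna1-dCas9A. For G2 in the sum of G1 and G2 the shares were 43.7%, 53.9% and 62.9% against 70.0%, 73.9% and 79.5%, with means of 53.5 ± 9.61% and 74.5 ± 4.75% (SD, n = 3). The a1 share of a1 and a2 was 86.0%, 88.0% and 87.4% against 91.0%, 92.1% and 93.5%. A share within a library does not depend on how the library is scaled. None of the 3 shares overlapped between the groups, but this was fixed by the choice of pairs. Where a form is higher and its partner lower in every Kcna1-dCas9A library, their share must separate the groups, so it adds no support. The pairs were chosen after their values were seen, so no test is attached, and the shares compare 3′ tags of 2 genes as deposited. In each pair the higher form also had the higher GC content in its longest transcript, 53.6% for *Atp6v0e2* and 44.8% for *Atp6v0e*, 52.9% for *Atp6v1g2* and 48.2% for *Atp6v1g1*, and 53.5% for *Atp6v0a1* and 50.6% for *Atp6v0a2*. The part of base composition in the shares was not tested.

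**Figure D2:**
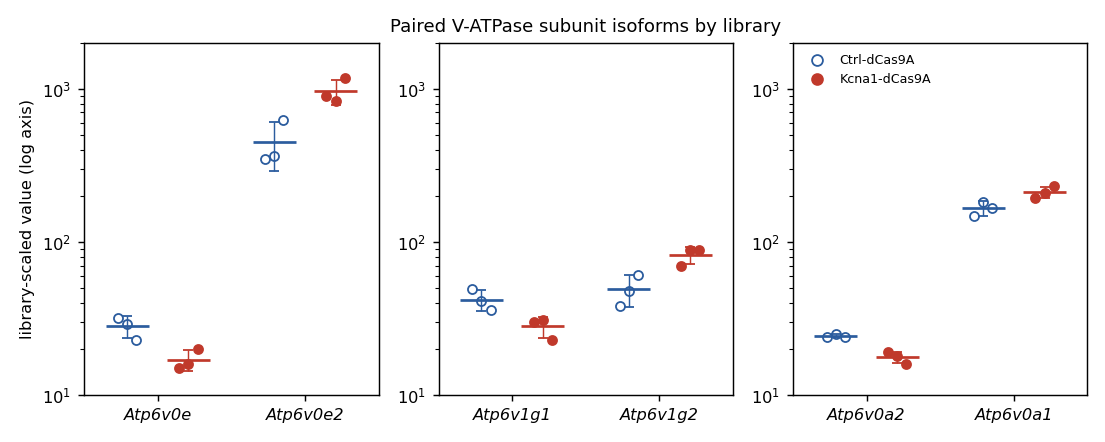
Library-scaled values on a log axis for the e, G and a subunit forms in 3 Ctrl-dCas9A (open) and 3 Kcna1-dCas9A libraries (filled), with bars at the mean and error bars of 1 SD. In each panel the form on the left was lower and the form on the right higher in every Kcna1-dCas9A library.

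Summed over the 20 V-ATPase genes, the value was 3090, 3200 and 3753 in Ctrl-dCas9A and 4055, 3935 and 4922 in Kcna1-dCas9A, a ratio of means of 1.29. *Atp6v0e2* and *Atp6ap1* carried most or all of this difference, depending on the scale. Without these, chosen after their values were seen, the sums were 2336, 2457 and 2503 against 2346, 2403 and 2576, which overlapped at a ratio of 1.0. They also overlapped with the median-of-ratios and upper-quartile factors, at ratios of 1.07 and 1.09. The V0 sum was 846, 900 and 1134 against 1438, 1420 and 1842 (ratio 1.63), and without *Atp6v0e2* it was 497, 535 and 506 against 545, 589 and 669 (1.17).

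The V1 sum was 1579, 1655 and 1670 in Ctrl-dCas9A and 1479, 1455 and 1564 in Kcna1-dCas9A, lower without overlap at a ratio of 0.917. This depended on the scale: with median-of-ratios factors the V1 sums overlapped at a ratio of 0.975, and with upper-quartile factors they overlapped at 0.995. The V0 sum without *Atp6v0e2* did not overlap on either scale, with ratios of 1.25 and 1.27. On both scales, 18 of the 25 members with a mean of at least 10 did not overlap, 10 higher and 8 lower. Of the 8050 genes, 43.2% did not overlap with median-of-ratios factors (23.2% higher, 20% lower) and 43.1% with upper-quartile factors (24.3% higher, 18.9% lower).

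**Figure D3:**
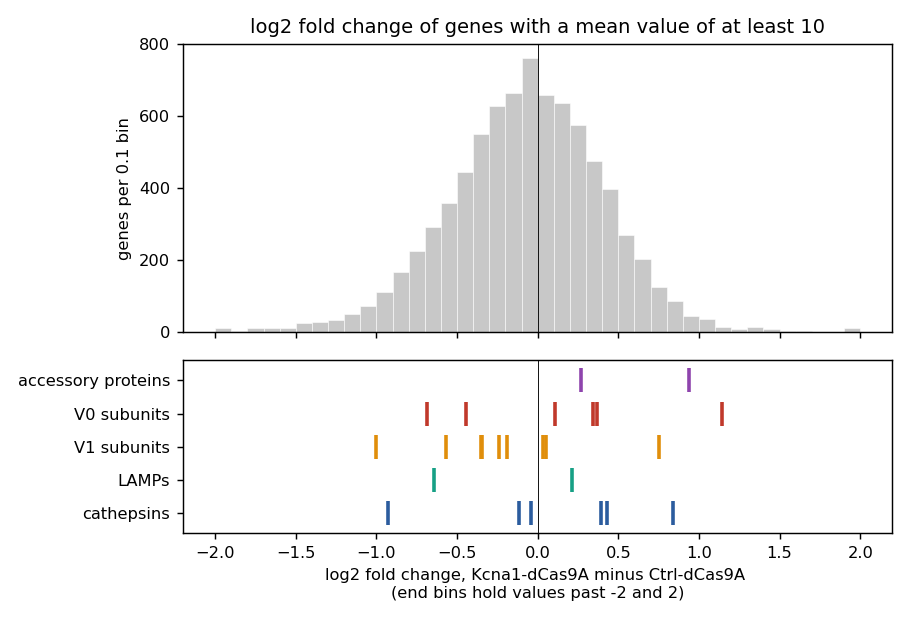
The upper panel counts the 8050 genes with a mean of at least 10 by log2 fold change (Kcna1-dCas9A minus Ctrl-dCas9A, bins of 0.1), and the lower panel marks the 25 members by class on the same axis. V0 subunits run from -0.69 to 1.15 and V1 subunits from -1.0 to 0.75, inside the range of all genes.

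The 2 LAMPs with a mean of at least 10 differed in direction. *Lamp1* was listed at 450, 466 and 494 in Ctrl-dCas9A against 506, 561 and 568 in Kcna1-dCas9A (log2 fold change 0.21, SE 0.09, limma adjusted p = 0.20 and 0.16). *Lamp2*, one splice form of which serves chaperone-mediated autophagy, was listed at 55, 61 and 44 against 35, 29 and 37 (-0.64, SE 0.16, limma adjusted p = 0.070 and 0.013). Neither overlapped, and *Lamp2* passed in 3 of the 6 fits among genes with a mean of at least 10 that left out a library. The sum of LAMPs was 506, 527 and 538 against 541, 590 and 605.

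Cathepsins also went both ways. *Ctsd*, the aspartic protease and the highest of the class, was listed at 234, 206 and 242 in Ctrl-dCas9A against 277, 328 and 291 in Kcna1-dCas9A (log2 fold change 0.39, SE 0.11, limma adjusted p = 0.081 and 0.026). *Ctsz*, a cysteine carboxypeptidase, was listed at 11, 7 and 10 against 17, 15 and 20 (0.84, SE 0.21, limma adjusted p = 0.071 and 0.019). Both were higher in every Kcna1-dCas9A library, at a low level for *Ctsz*. *Ctsa*, a serine carboxypeptidase that also protects other lysosomal enzymes, was listed at 34, 34 and 42 against 42, 47 and 61 and met at 42 (0.43, SE 0.17, limma adjusted p = 0.19 and 0.077).

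*Ctsl*, a cysteine endopeptidase, had the lowest fold change of the cathepsins with a mean of at least 10. It was listed at 48, 45 and 27 in Ctrl-dCas9A against 17, 22 and 21 in Kcna1-dCas9A, with Ctrl-dCas9A replicate 3 nearest to the other group (log2 fold change -0.93, SE 0.24, limma adjusted p = 0.071 and 0.0067). It passed in 5 of the 6 fits without a library, the highest adjusted p being 0.051. *Ctsb*, a cysteine protease of the same family, was listed at 77, 68 and 65 against 59, 62 and 73 and overlapped (95% interval -0.41 to 0.18). Summed, the 13 cathepsins gave 428, 388 and 407 against 437, 491 and 488, a ratio of 1.16 without overlap. *Ctsd* carried this sum. Without it, a choice made after its values were seen, the other 12 gave 194, 182 and 165 against 160, 163 and 197, which overlapped at a ratio of 0.961 (1.02 and 1.04 with the median-of-ratios and upper-quartile factors), and 8 of the 13 had log2 fold changes below 0.

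Microglia are rich in cathepsins, and the sum of their markers differed in the same direction as *Ctsd* and *Ctsz*. The sum of the 14 microglia and macrophage markers above 0 was 42, 31 and 44 in Ctrl-dCas9A and 84, 74 and 101 in Kcna1-dCas9A, with *C1qa* at 9, 6 and 6 against 23, 22 and 24 (log2 fold change 1.61, limma adjusted p = 0.049), *Csf1r* between 0 and 8, and *P2ry12* and *Tmem119* at 0. *Ctss*, a cathepsin typical of microglia, was listed at 7, 5 and 4 against 8, 3 and 6. The summed level of the 10 astrocyte markers was lower, as were *Ctsl* and *Lamp2*, at 961 to 1069 in Ctrl-dCas9A and 702 to 718 in Kcna1-dCas9A. Of these markers 3 passed in the fit of all genes, all lower (0.81% of all genes), and 6 were lower without overlap (13.3% of all genes). In fits of all genes with the replicate block, or with any library but Ctrl-dCas9A replicate 3 left out, no gene passed, *C1qa* included. *Aqp4* was among the 3, at 53, 54 and 39 against 18, 17 and 17 (limma adjusted p = 0.049), whereas *Gfap* (45 to 63 against 46 to 70) and, named after their values were seen, *S100b* (3 to 8 against 6 to 9) and *Aldh1l1* (5 to 12 against 6 to 11) overlapped. The oligodendrocyte lineage sum was 72 to 104 against 47 to 49, with *Mag* and *Mog* at 0. Of its 8 markers above 0, 6 had log2 fold changes below 0 and 2 above, the latter being *Mbp* (3, 3 and 2 against 7, 4 and 7) and *Cnp* (6, 3 and 6 against 7, 6 and 9), also named after their values were seen. The sum of markers of dividing cells and progenitors was 653 to 676 against 460 to 527. Neuron markers summed to 6965 to 7938 against 7992 to 9409, with *Tubb3* higher (1862, 1752 and 2605 against 3855, 3221 and 4591) and *Snap25* lower (94, 89 and 86 against 66, 59 and 56). Without *Tubb3* the other 15 neuron markers summed to 5103, 5230 and 5333 against 5056, 4771 and 4818, lower without overlap, and of all 16 the log2 fold change was above 0 for 7 and below 0 for 9. The part of these markers in the members' differences was not tested.

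The remaining members were at low values. *Ctsf* was listed at 11 to 16 in all libraries and overlapped, and *Ctso*, *Ctsh* and *Ctsc* at 3 or less. *Lamp5*, *Ctsw*, *Ctsg*, *Ctsm* and *Atp6v1e2* were listed at 1 in a single library. The other 12 symbols that met the rule were listed at 0 throughout, namely *Atp6v0c*, *Atp6v0c-ps1*, *Atp6v0d2*, *Atp6v1b1*, *Atp6v1c2*, *Atp6v1g3*, *Ctse*, *Ctsj*, *Ctsk*, *Ctsq*, *Ctsr* and *Lamp3*. *Atp6v0c*, the main proteolipid of the V0 ring, is used by every cell, and a value of 0 there is not a measured absence. *Gapdh*, *Ftl1* and *Ubb*, also genes of every cell, were listed at 3 to 17, and *Actb* at 8022 to 11652. Whether near-identical copies in the genome played a part in any of these values was not tested. Other transcripts overlap *Atp6v0b*, *Atp6v0a1*, *Atp6v1b2*, *Atp6v1e1*, *Atp6v1g1*, *Atp6v1g2*, *Atp6v0a4*, *Lamp2*, *Ctsa*, *Ctsb*, *Ctss*, *Ctsw* and *Ctsz* in RefSeq, and whether the counting used strand is not given in the sources used here, so their values may include reads of a neighbour.

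The direction of a member went with the base composition of its transcript. The 8 members higher without overlap had a GC content of 51.2% to 57.3% in their longest coding transcript (median 53.6%), and the 9 lower ones 38.7% to 50.6% (median 44.7%). Across the 25 members the log2 fold change and the GC content had a Spearman correlation of 0.69, against 0.26 across 7196 genes of the same libraries, while transcript length gave -0.16 and 0.00. These are descriptions over genes that share libraries.

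After a loess correction for GC content in each library, 7 of 25 members passed among 7196 genes, where 26.5% of genes passed (14.0% higher, 12.5% lower). In the same genes without the correction 13 of 25 passed, where 28.9% of genes passed. The GC content used is that of the whole transcript, whereas these libraries read mainly its end. Whether a member's difference came from the base composition of the part read was not tested. *Atp6v0e2* (log2 fold change 1.15, limma adjusted p = 0.0014), *Atp6ap1* (1.0, 0.0032), *Atp6v1g2* (0.78, 0.0063) and *Ctsz* (0.76, 0.027) stayed higher, and *Atp6v1h* (-0.78, 0.023) and *Ctsl* (-0.76, 0.018) stayed lower. *Atp6ap2*, with a GC content of 40.5%, passed after the correction (0.51, 0.013). *Lamp2* (-0.38, 0.092), *Atp6v0e* (-0.52, 0.062), *Atp6v1a* (-0.17, 0.29), *Atp6v1e1* (-0.24, 0.17), *Atp6v1g1* (-0.45, 0.069), *Atp6v0b* (0.31, 0.066) and *Ctsd* (0.34, 0.056) no longer passed.

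**Figure D4:**
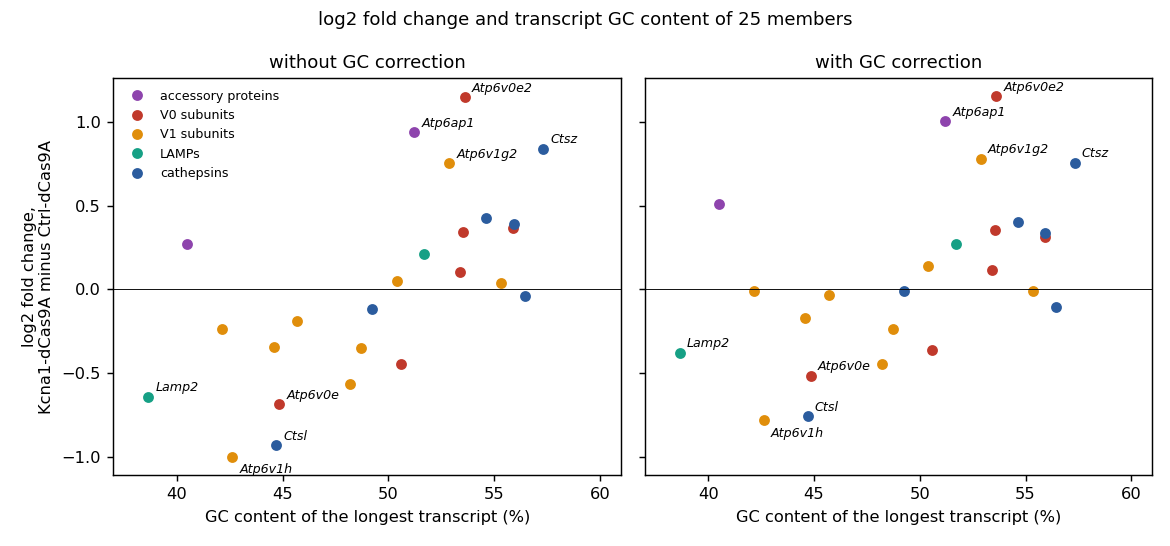
Each point is 1 of the 25 members, with the GC content of its longest transcript (percent) on the x axis and the log2 fold change on the y axis, before (left) and after (right) the GC correction. The Spearman correlation was 0.69 before and 0.56 after it, and *Atp6v0e2*, *Atp6ap1*, *Atp6v1g2*, *Ctsz*, *Atp6v1h* and *Ctsl* kept their places at the extremes.

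Other genes of the lysosome were counted from lists of their roles. Of 12 genes of V-ATPase assembly and regulation above 0, 1 passed in the fit of all genes, where 1.16% of genes passed. *Ccdc115*, an assembly factor of the pump, fell from 59, 68 and 59 in Ctrl-dCas9A to 30, 22 and 17 in Kcna1-dCas9A (log2 fold change -1.42, SE 0.20, limma adjusted p = 0.049). Of 30 lysosomal membrane proteins and transporters 1 passed, *Mfsd1*, a lysosomal transporter, which fell from 82, 76 and 78 to 50, 46 and 45 (-0.73, SE 0.10, limma adjusted p = 0.049). Both calls ended with the replicate block, without the intensity trend, and with any library but Ctrl-dCas9A replicate 3 left out. None of 42 hydrolases and activators, 5 cathepsin inhibitors and processing genes, 25 genes of the TFEB family and mTORC1 at the lysosome, or 15 genes of mannose 6-phosphate sorting passed, although 12, 4, 7 and 5 of them had an unadjusted p under 0.05, which 23.2% of all genes had.

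Among genes with a mean of at least 10, where 28.4% of genes passed, the lists gave 2 of 9 for assembly (both lower), 7 of 19 for the membrane (4 higher, 3 lower), 5 of 18 for hydrolases (3 higher, 2 lower), 6 of 19 for TFEB and mTORC1 (2 higher, 4 lower), 4 of 13 for sorting (1 higher, 3 lower) and 2 of 3 for cathepsin inhibitors (both lower). The genes named next were chosen after their values were seen. *Cst3*, the secreted cathepsin inhibitor cystatin C, was listed at 297, 263 and 177 in Ctrl-dCas9A against 112, 126 and 95 in Kcna1-dCas9A (log2 fold change -1.12, SE 0.21, limma adjusted p = 0.053 and 0.0008). *Cstb*, the cytosolic inhibitor cystatin B, was listed at 46, 48 and 28 against 25, 21 and 15. Both inhibitors were lower in every Kcna1-dCas9A library.

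Of the precursors that lysosomal proteases cut, *Grn*, which encodes progranulin, was listed at 89, 80 and 143 against 236, 225 and 252 (log2 fold change 1.23, SE 0.21, limma adjusted p = 0.051 and 0.00049). *Psap*, which encodes the precursor of the saposins, was listed at 240, 229 and 173 against 130, 120 and 61 (-1.10, SE 0.29, limma adjusted p = 0.079 and 0.0033). The 2 precursors thus differed in opposite directions, each without overlap. *Tfe3*, one of the factors that bind CLEAR elements, was listed at 16, 20 and 17 against 26, 31 and 31 (0.70, SE 0.15, limma adjusted p = 0.056 and 0.013), while *Tfeb* was not above 6 in any library.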

How the data were processed

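RNA from 3 Ctrl-dCas9A and 3 Kcna1-dCas9A samples, grouped by their labels, was sequenced with a QuantSeq 3′ kit. The authors deposited 1 whole-number score per gene and library. These are taken to be library-scaled values that the authors rounded, since their totals are nearly equal (999047 to 999717) and, at means of 4 to 8, vary less than counts would (variance over mean 0.705 and 0.504), so no count test was used. The study's methods name Bowtie2 and NCBI37/mm9, and the submitters' processing notes name STAR 2.7, featureCounts, DESeq2 and mm10.

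limma 3.58.1 under R 4.3.3 (lmFit, then eBayes with a trend on intensity) was fitted to log2(value + 1) with group as the only factor, for the 19504 genes above 0, with Benjamini-Hochberg adjustment. For genes with low values this scale makes changes look smaller. On data simulated with an assumed depth and spread, false calls without a filter were nearly all of genes with a mean under 10. This need not hold for these libraries, whose depth is unknown. Members, lists and motifs were chosen with earlier results of these data known. Named were members with p under 0.05 or a mean of at least 50, pathway list genes past the adjusted threshold, and *C1qa*, *Csf1r*, *Gfap*, *Aqp4*, *Tubb3* and *Snap25* among cell type markers; other genes were named after their values were seen. Alternatives were pseudocounts, filters, rescalings, variance models, a replicate block and each library left out. Combinations with the filter at a mean of 10 and the GC correction (longest coding transcript in GENCODE vM1, 89.4% of genes) were added after seeing the data. Python 3.11.15 was used for sums, shares and motifs.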

Additional observations from a re-analysis of the deposited data

How the results depend on the processing

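The number of members past an adjusted p of 0.05 was 0 with a pseudocount of 0.1 or 5, without the intensity trend and with the replicate block, 2 with upper-quartile rescaling, 6 at a mean of at least 1, 8 with median-of-ratios rescaling, 11 with robust variance, 13 at a mean of at least 10, and 0 to 11 with a library left out. Split into V-ATPase genes and into cathepsins and LAMPs, these were 2 and 0 (upper-quartile), 3 and 3 (mean of 1), 5 and 3 (median-of-ratios), 7 and 4 (robust), 9 and 4 (mean of 10), and 0 to 9 and 0 to 2 (library left out). All genes past the threshold numbered 226 as reported, 0 with the block, 201 without the trend, 475 and 627 with pseudocounts of 5 and 0.1, 868 and 1719 with upper-quartile and median-of-ratios rescaling, 1543 and 2289 at means of 1 and 10, 2884 with robust variance, and 0 to 2711 with a library left out (2711 without Ctrl-dCas9A replicate 3). For the genes of the 6 pathway lists the numbers were 2 as reported, 0 with the block or without the trend, 6 and 7 with pseudocounts of 5 and 0.1, 10 and 16 with the rescalings, 19 and 26 at means of 1 and 10, 28 with robust variance, and 0 to 21 with a library left out. The cause of these shifts was not tested.

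In settings added after seeing the data, at a mean of at least 10, all genes, members, V-ATPase genes, cathepsins and LAMPs, and list genes past the threshold numbered 2645, 15, 10, 5 and 28 with the replicate block, 2301, 12, 7, 5 and 25 with median-of-ratios rescaling, 2081, 13, 9, 4 and 24 for genes with a GC value and 1905, 7, 5, 2 and 22 after the GC correction. With a library left out they ranged from 888 to 3755, 4 to 18, 3 to 12, 1 to 6 and 10 to 35.

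*Kcna1* kept a log2 fold change of 1.83 with the block (limma adjusted p = 0.11), and of 1.73 to 1.99 with a library left out, where it missed the threshold in 5 of 6 fits (limma adjusted p up to 0.14). In each fit that *Kcna1* missed, no other gene passed either. The replicate numbers were not taken to pair the libraries: same-numbered libraries correlated at 0.014, 0.114 and 0.154 across 8050 genes, and Ctrl-dCas9A replicate 1 correlated best with Kcna1-dCas9A replicate 2. For the 24 named members, 303 planned and 143 added values kept their side of the threshold, 51 and 91 moved past it, and 6 and 6 changed sign. All 12 were of members whose groups overlapped: with a library left out, *Atp6v0d1* ranged from -0.010 to 0.19, *Atp6v1f* from -0.084 to 0.17 and *Atp6v1b2* from -0.038 to 0.16, below 0 without Kcna1-dCas9A replicate 3 and, for the last pair, without Ctrl-dCas9A replicate 1, *Atp6v1f* was -0.0076 after the GC correction, and *Ctsb* was 0.0013 with upper-quartile rescaling. Depth is unknown, and rounding to whole numbers limits members below about 10.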
